A study of Mus musculus with 4 samples.

Results

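The genes described are 10 transcription factor genes of the AP-1 and early growth response families in mouse primary myotubes. They are the Fos genes Fos, Fosb, Fosl1 and Fosl2, the Jun genes Jun, Junb and Jund, and Atf3, Egr1 and Egr2. They were chosen by name, with no measured value in the rule but with earlier results of these data known, and all 10 were found among the 53647 genes of the count tables. Wild-type (WT) myoblasts taken from the limbs of pups aged 2 to 3 days were fused into myotubes in low-serum medium and harvested 72 h after differentiation began. One group of cultures received EDA-A2, the ligand of the tumour necrosis factor (TNF) receptor family member EDA2R, at 250 ng/mL for 24 h, and the other group is labelled only Control, so a vehicle is not given. Each group holds 2 libraries of polyadenylated RNA. The labels do not say whether replicates came from separate animals or separate cultures, so p-values measure only the spread between these samples, which may be technical.

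AP-1 is a transcription factor built from a pair of basic leucine zipper (bZIP) proteins. JUN proteins pair with each other or with a FOS protein, whereas FOS proteins need a JUN partner to bind DNA. ATF3, a related bZIP protein, pairs with JUN proteins and often represses, and EGR1 and EGR2 are zinc finger factors that bind GC-rich sites. Several of the genes, such as Fos and Egr1, are called immediate early. Growth factors, stress and mechanical load switch these on without new protein synthesis, mostly for a short time. Jund, Fosl1 and Fosl2 differ in this, as given below. MAP kinases downstream of TNF receptors act on several of the genes described. In skeletal muscle JUNB has been linked to the maintenance of fibre size and FOS to the early activation of satellite cells.

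The upstream sequences of 4 members are shown, because all 4 genes changed after EDA-A2, and the stretches of Fos and Egr2 were placed around motif matches. The stretches of Junb and Atf3, in which no motif searched was found, are those next to the start of the canonical GENCODE transcript. The 4 windows therefore differ and are not compared. For Atf3 and Egr2 that start lies well inside the annotated gene, and the sequence before starts further upstream was not searched. They were read from the GRCm39 genome, on the gene's strand and 5′ to 3′. Capitals mark a CArG box, the site of serum response factor (SRF), or a κB site, the site of NFκB. The κB match of Fos lies on the other strand, so its capitals are the reverse complement of the letters searched. The Fos stretch lies at chr12:85520345-85520469 (plus strand), that of Junb at chr8:85705368-85705487 (minus strand), that of Atf3 at chr1:190915558-190915677 (minus strand) and that of Egr2 at chr10:67373617-67373646 (plus strand).
Fos: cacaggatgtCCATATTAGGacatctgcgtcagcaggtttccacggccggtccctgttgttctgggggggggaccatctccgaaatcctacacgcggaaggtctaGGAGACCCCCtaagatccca
Egr2: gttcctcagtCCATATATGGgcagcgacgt
Junb: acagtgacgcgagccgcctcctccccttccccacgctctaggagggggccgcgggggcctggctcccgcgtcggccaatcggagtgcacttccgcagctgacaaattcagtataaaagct
Atf3: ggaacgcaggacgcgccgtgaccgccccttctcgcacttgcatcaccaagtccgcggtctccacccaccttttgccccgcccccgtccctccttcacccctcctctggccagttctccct

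In the 500 bases before the start of the gene's canonical GENCODE transcript, on both strands, a CArG box was found for Fos, Fosb and Egr2, and such a box was present in 2.78% of 21623 protein-coding promoters of that length. The first base of the CArG box lay 303 bases before the start of Fos and 65 before that of Egr2, where the window holds a further box, 368 bases before the start. The κB letters were found for Fos and Fosb (12.3% of promoters) and not in these 500 bases for Junb or Atf3. The AP-1 site TGANTCA was found for Fos (12.4% of promoters), the cyclic AMP response element TGACGTCA for Jund (1.95%) and the EGR site GCGNGGGCG for Fosb, Jun and Jund (5.44%). Fosb and Jund each hold more than 1 EGR match, and no match overlapped another. These counts cover 9 members, since Egr1 was left out of the sequence description, and they describe letters in a window and not bound sites.

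Libraries held between 29444155 and 29746863 counts on genes, with scaling factors between 0.9717 and 1.0259, so depth was nearly equal. A count of 0 would allow up to 3 counts, or 0.101 to 0.102 CPM (counts scaled to library size), which covers counting error only, and no member came near that floor. As for the label, markers of myotubes summed to 24120 and 25370 CPM in the control libraries and to 18450 and 18480 CPM in the EDA-A2 libraries, and 4 of 9, Myh3, Myh8, Acta1 and Mybph, were called lower (adjusted p under 0.05 in edgeR). Markers of dividing cells summed to 707.5 and 839.4 CPM in control and to 776.1 and 790.9 CPM after EDA-A2, none called. The 5 myoblast markers summed to 305.7 and 340.8 CPM in control and to 295 and 301.9 CPM after EDA-A2, with Vcam1 called higher and Cdh15 lower. Fibroblast markers gave 325.4 CPM in control replicate 1 against 173.2 to 210.6 in the other libraries, mostly from Col1a1, while Lum and Thy1 were at 0. Macrophage markers summed to 2.473 and 2.931 CPM in control and to 3.355 and 4.009 CPM after EDA-A2, with Adgre1, Ptprc and Lyz2 at or under the floor. Endothelial markers summed to at most 1.397 CPM in control and 1.657 CPM after EDA-A2, Schwann cell markers to at most 2.999 and 2.882 CPM with Sox10 at 0, and the 4 T cell markers were at or under the floor. The part of these shifts in the changes below was not tested, and in bulk RNA fewer cells of a type and less RNA per cell cannot be told apart. The receptor gene Eda2r, which belongs to the TNF receptor family, measured 7024 and 7685 normalized counts in control and 8733 and 9951 after EDA-A2 (log2 fold change 0.35, edgeR adjusted p = 0.0179). That call was lost without EDA-A2 replicate 2 (log2 fold change 0.25). Without control replicates 1 and 2 the log2 fold change was 0.28 and 0.41.

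Junb, Egr2 and Egr1 rose after EDA-A2, Fos and Atf3 fell, and the other 5 members did not pass the test. Only 24 h of EDA-A2 was sampled, so changes at earlier times were not measured. Normalized counts bring each library to the average size of the 4, after TMM scaling. A gene is called when its adjusted p is under 0.05, in edgeR's quasi-likelihood fit with p-values adjusted by Benjamini and Hochberg over the 15173 genes tested. All 10 members passed the filter on low counts and 5 of them were called, where 4.57% of all genes tested were called. Since earlier results were known at the choice, this count is a description. In direction, 3 members were called higher, against 2.45% of all genes, and 2 lower, against 2.13%. The median log2 fold change of the 10 members was 0.09, and over all genes tested it was -0.00. The median of the members was 0.014 when control replicate 2 was left out and -0.012 when EDA-A2 replicate 1 was, so its sign turned. Without control replicate 1 or without control replicate 2 a single control was left, and edgeR then called no gene, however large its change. The NFκB pathway gene Nfkbie was not called there at a log2 fold change of 3.03 and 3.28. These 2 fits therefore cannot show whether a call rests on both control libraries. With no filter on low counts no member was called by edgeR, and their lowest adjusted p was 0.0676, for Junb. Under that setting 6 members still had an unadjusted p under 0.05.

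**Figure D1:**
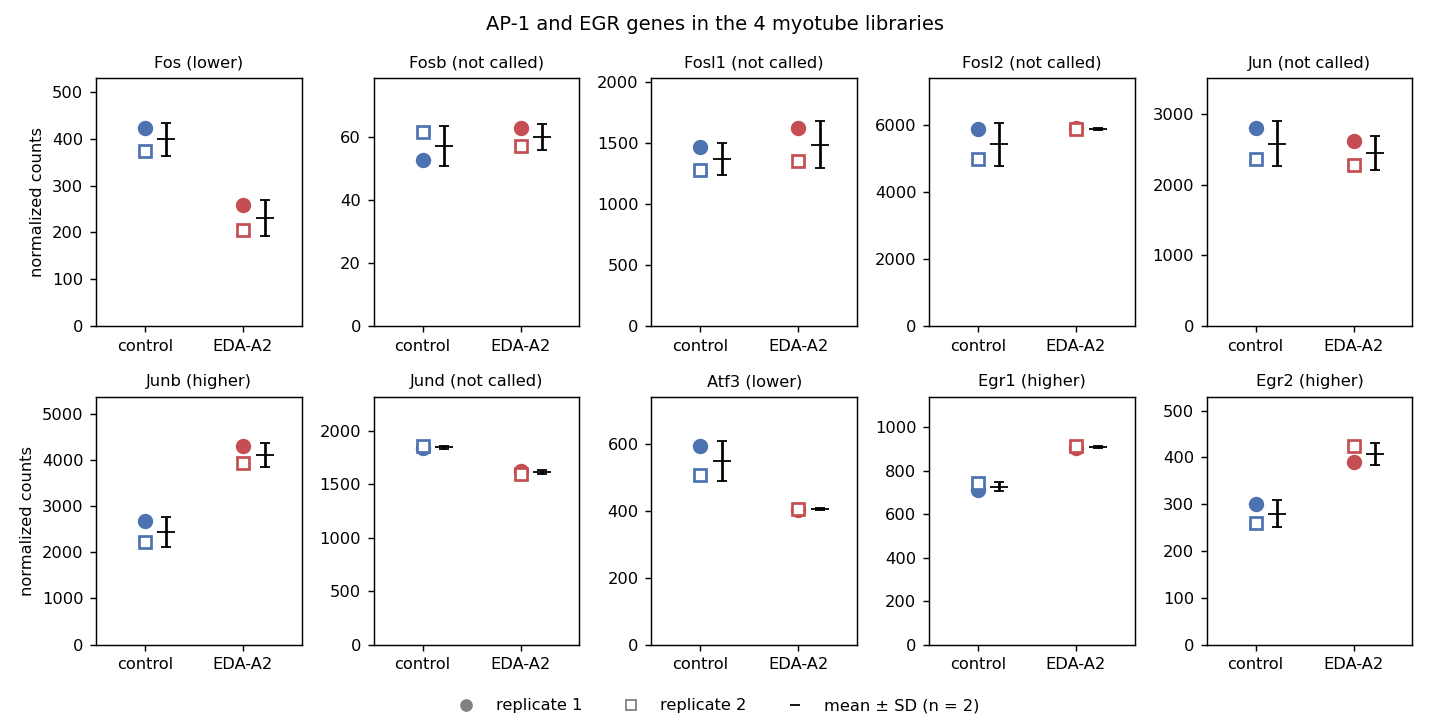
Normalized counts (vertical axes, each starting at 0) of the 10 genes in the 2 control and 2 EDA-A2 libraries; circles are replicate 1, squares replicate 2, and bars the mean ± SD (n = 2). The groups do not overlap for Fos, Junb, Jund, Atf3, Egr1 and Egr2, and they overlap for Fosb, Fosl1, Fosl2 and Jun.

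Among the Jun genes, Junb was the one that was called. Junb (ENSMUSG00000052837, chr8:85701113-85705359, minus strand) encodes a JUN protein that activates less strongly than JUN on many AP-1 sites and can hold JUN back. It measured 2674 and 2222 normalized counts in control replicates 1 and 2, and 4303 and 3941 in EDA-A2 replicates 1 and 2. Both EDA-A2 libraries lay above both controls by more than the spread within either group. The rise was 1.68-fold, from 2448 ± 320 to 4122 ± 256 (SD, n = 2), a log2 fold change of 0.75 (standard error 0.09, 95% interval 0.57 to 0.94, adjusted p = 9.24e-05). With each library left out in turn it lay between 0.63 and 0.89. The library kit keeps strand, but whether the counting used it is not stated. Exons of Prdx2, on the other strand, cover 7.3% of the exon bases of Junb, and Prdx2 was not called (log2 fold change 0.13).

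Jun (ENSMUSG00000052684, chr4:94937271-94940459, minus strand), the founding member, measured 2804 and 2360 normalized counts in control and 2620 and 2281 after EDA-A2. In each group replicate 1 was the higher, and the groups overlapped. Its log2 fold change was -0.08 (95% interval -0.27 to 0.12, adjusted p = 0.783), and its sign turned when control replicate 1 (0.06) or EDA-A2 replicate 2 (0.02) was left out. The antisense gene Junos overlaps 16.6% of the exon bases of Jun and held 142 to 184 normalized counts.

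Jund (ENSMUSG00000071076, chr8:71151599-71153265, plus strand), the Jun gene usually expressed without a stimulus, measured 1835 and 1852 normalized counts in control and 1626 and 1598 after EDA-A2. These groups did not overlap, with SDs of 12.3 and 19.9. The log2 fold change was -0.19 (95% interval -0.35 to -0.04), at an unadjusted p of 0.0165 and an adjusted p of 0.170, so Jund was not called. An antisense gene, Gm11175, overlaps 52.6% of its exon bases and held 10.8 to 14.4 normalized counts. The counts of Jund, and its levels per length below, are uncertain where the counting did not use strand. Over all genes tested, 45.0% had groups that did not overlap, and among the members 6 of 10 did, the 5 called genes and Jund.

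The make-up of the Jun pool differed between the groups. Levels of different genes are compared here per length, as RPKM, counts per kilobase of merged exons scaled to library size. Junb made up 36.19% and 33.51% of the summed RPKM of the 3 Jun genes in control and 50.14% and 49.72% after EDA-A2. Over the same libraries Jund went from 35.48% and 39.91% to 27.06% and 28.80%, and Jun from 28.33% and 26.58% to 22.79% and 21.49%. The 3 shares are parts of the same sum, so a rise of Junb alone lowers the other shares. Jun and Jund were themselves not called. The ratio of Junb to Jun RPKM was 1.28 and 1.26 in control and 2.20 and 2.31 after EDA-A2. Both EDA-A2 values were above both control values, but an exact permutation test over 2 against 2 libraries cannot go below p = 0.333, the value it gave for each of the 6 ratios computed (adjusted p = 0.333).

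**Figure D2:**
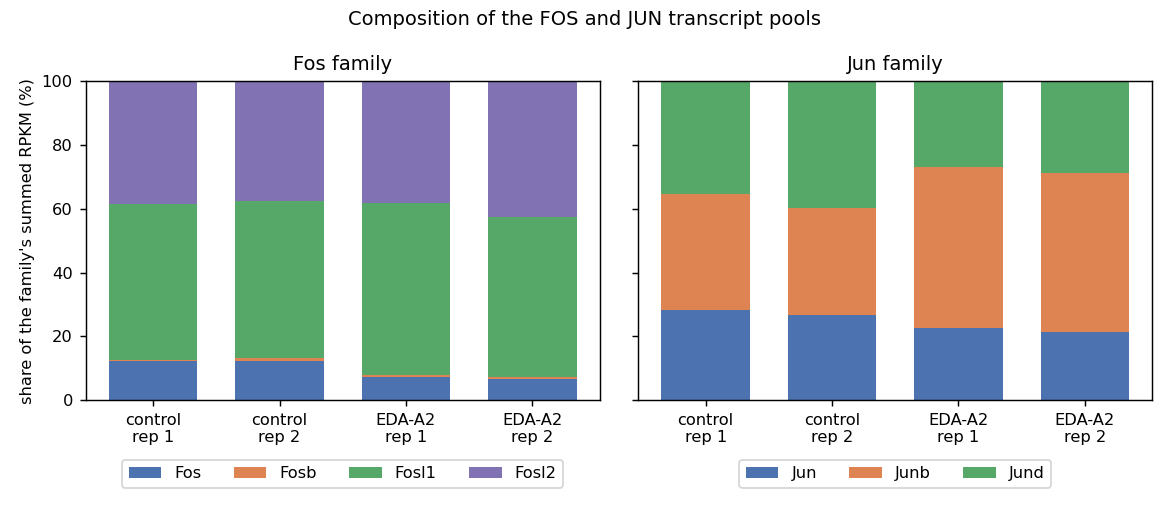
Share of the summed RPKM of the 4 Fos genes (left) and of the 3 Jun genes (right) held by each gene, in percent, for each of the 4 libraries. Junb took 33.51% to 36.19% of the Jun pool in control and 49.72% to 50.14% after EDA-A2, while Fos took 12.18% to 12.42% and 6.54% to 7.35% of the Fos pool.

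Among the Fos genes, only Fos itself was called in the edgeR fit. Fos (ENSMUSG00000021250, chr12:85520658-85524047, plus strand), the short-lived partner of JUN whose CArG box is printed above, measured 423 and 374 normalized counts in control and 258 and 204 after EDA-A2. The highest EDA-A2 library was below the lowest control. The fall was from 399 ± 34.9 to 231 ± 37.7 (SD, n = 2), to 0.58 of the control level, or -0.79 on the log2 scale (standard error 0.14, 95% interval -1.08 to -0.50, adjusted p = 0.00299). Without each library in turn the value lay between -0.96 and -0.63.

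Fosb (ENSMUSG00000003545, chr7:19036621-19043976, minus strand), which like Fos activates transcription, was the lowest member, with 52.5 and 61.5 normalized counts in control and 62.7 and 57.0 after EDA-A2. At this depth its interval was wide, -0.45 to 0.59 around 0.07 on the log2 scale (adjusted p = 0.941), and a fall of the size measured for Atf3 lies within it. Its value was -0.04 when control replicate 1 was left out and -4e-04 when EDA-A2 replicate 1 was.

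Fosl1 and Fosl2 encode FRA-1 and FRA-2, which lack the strong activation domain of FOS and stay expressed longer. Fosl1 (ENSMUSG00000024912, chr19:5497575-5505974, plus strand) measured 1464 and 1280 normalized counts in control and 1624 and 1349 after EDA-A2, with overlapping groups. Its log2 fold change was 0.12 (95% interval -0.09 to 0.32, adjusted p = 0.652), and it was -0.02 without EDA-A2 replicate 1. Exons of Ccdc85b, on the other strand, cover 57.2% of the exon bases of Fosl1, so its counts are uncertain where the counting did not use strand. Ccdc85b itself held 1111 to 1252 normalized counts and was not called (log2 fold change 0.08).

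Fosl2 (ENSMUSG00000029135, chr5:32292707-32315186, plus strand) had the most counts of all members, 5886 and 4987 normalized counts in control and 5925 and 5880 after EDA-A2. Control replicate 2 stood below the other 3 libraries. The log2 fold change was 0.12 (95% interval -0.05 to 0.29, adjusted p = 0.540), and it was 0.25 when control replicate 1 was left out and 0.0049 when control replicate 2 was. The interval of Fos lay wholly below those of Fosl1 and Fosl2. In the Fos pool the share of Fos went from 12.18% and 12.42% to 7.35% and 6.54%, whereas Fosl1 held 48.85% and 49.27%, then 53.68% and 50.09%. Fosl2 held 37.54% to 42.68% in all libraries, and Fosb 0.57% to 0.77%. The summed RPKM of the 4 Fos genes overlapped between groups, at 49.83 and 43.18 in control and 50.30 and 44.79 after EDA-A2. For the Jun genes the sum was 104.9 and 94.11 in control and 121.8 and 112.5 after EDA-A2.

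**Figure D3:**
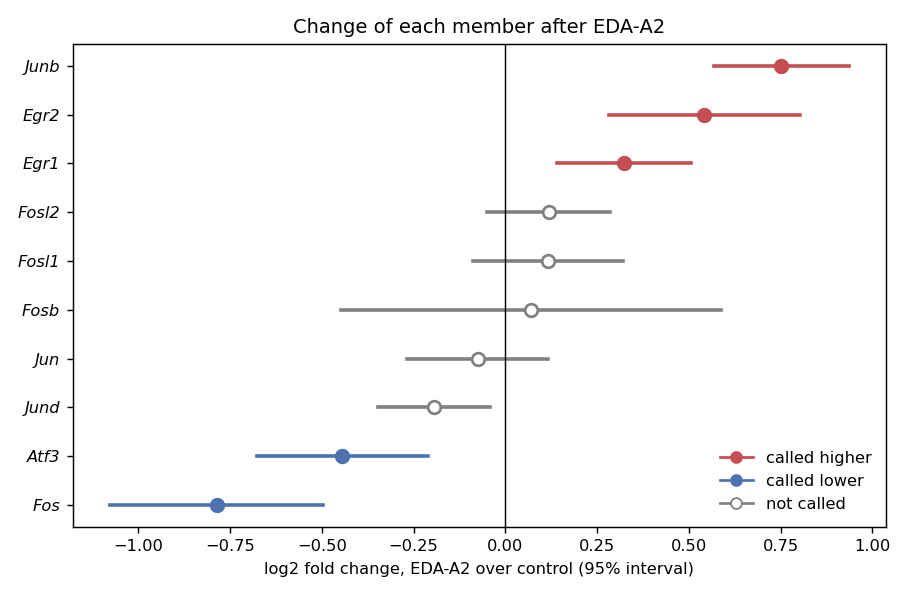
Log2 fold change of each gene (EDA-A2 over control, horizontal axis) with its 95% interval from the edgeR fit; filled points were called, open points were not. Junb (0.75), Egr2 (0.54) and Egr1 (0.32) lie above 0, and Atf3 (-0.44) and Fos (-0.79) below.

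Atf3 fell together with Fos. Atf3 (ENSMUSG00000026628, chr1:190902493-190950241, minus strand), a stress-induced repressor, measured 593 and 508 normalized counts in control and 403 and 407 after EDA-A2. The 2 EDA-A2 libraries were nearly equal and below both controls, which differed from each other more. The level went from 551 ± 60.3 to 405 ± 2.84 (SD, n = 2), a log2 fold change of -0.44 (standard error 0.11, 95% interval -0.68 to -0.21, adjusted p = 0.0296). This call was lost when library totals replaced TMM (adjusted p = 0.0649), with the DESeq2 Wald test (adjusted p = 0.0624) and without either EDA-A2 library. With each of the 4 libraries left out in turn the value lay between -0.55 and -0.33 on the log2 scale.

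Both Egr members rose. Egr2 (ENSMUSG00000037868, chr10:67371305-67378018, plus strand), known best for its role in peripheral myelination, measured 299.8 and 259 normalized counts in control and 390.1 and 424 after EDA-A2. Each EDA-A2 library was above each control. The rise was 1.46-fold, from 279 ± 28.8 to 407 ± 23.7 (SD, n = 2), or 0.54 on the log2 scale (standard error 0.12, 95% interval 0.28 to 0.80, adjusted p = 0.0174). Apart from the fits without a control library and with no filter, the call was lost without EDA-A2 replicate 2 (log2 fold change 0.48, adjusted p = 0.188).

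Egr1 (ENSMUSG00000038418, chr18:34992876-34998049, plus strand), a factor switched on by growth signals and by load, measured 712 and 742 normalized counts in control and 907 and 912 after EDA-A2. The replicates were close in both groups and the groups did not overlap. The change was the smallest of the 5 called, from 727 ± 21.4 to 909 ± 3.78 (SD, n = 2), or 0.32 on the log2 scale (standard error 0.09, 95% interval 0.14 to 0.50, adjusted p = 0.0441). Egr1 was not called by the DESeq2 Wald test (adjusted p = 0.119) or without either EDA-A2 library. With each of the 4 libraries left out in turn its value stayed between 0.29 and 0.35 on the log2 scale. The ratio of Egr2 to Egr1 RPKM was 0.556 and 0.461 in control and 0.568 and 0.613 after EDA-A2.

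Per length, the Jun genes were the most abundant members. Over the 4 libraries of both groups Junb had 46.6 ± 14.1 RPKM (SD, n = 4), Jund 35.0 ± 2.73, Jun 26.7 ± 2.55 and Fosl1 23.8 ± 2.50. These were followed by Fosl2 with 18.4 ± 1.48 RPKM, Atf3 with 6.62 ± 1.26, Egr1 with 6.15 ± 0.797, Fos with 4.52 ± 1.45 and Egr2 with 3.41 ± 0.761. Fosb came last with 0.316 ± 0.0251 RPKM. Among neighbours in this order, the ranges over the 4 libraries overlapped for Junb and Jund, for Jun and Fosl1, and along the chain from Atf3 through Egr1 and Fos to Egr2. For several of these pairs the overlap came from pooling the groups, and the order turned between them. In control Atf3 (7.04 and 8.22 RPKM) was above Egr1 (5.35 and 5.58 RPKM), and after EDA-A2 it was below (5.58 and 5.63 against 6.82 and 6.86 RPKM). Likewise Fos (5.36 and 6.07 RPKM) was above Egr2 (2.57 and 2.98 RPKM) in control and below it after EDA-A2 (2.93 and 3.70 against 3.87 and 4.21 RPKM). Egr1 and Fos overlapped in control but not after EDA-A2, and Jun and Fosl1 overlapped after EDA-A2 but not in control. The ranges did not overlap between Jund and Jun, Fosl1 and Fosl2, Fosl2 and Atf3, or Egr2 and Fosb. Within control the ranges of Jund (mean 37.4 RPKM) and Junb (mean 34.8 RPKM) overlapped, and after EDA-A2 Junb (mean 58.5 RPKM) stood above Jund (mean 32.7 RPKM) in both libraries. Of all genes tested, 95.8% had a lower RPKM than Junb, 58.8% a lower one than Fos and 13.0% a lower one than Fosb. The order depends on the length used, since Fosl2 has 10397 bases of merged exons but 978 coding bases, and per coding length it came first with 196 RPKM. The turns between the groups were also read per merged-exon length only. Atf3 has 2441 bases of merged exons and 543 coding bases, and Egr1 has 4496 and 1599. Per coding length the means over the 4 libraries were 29.8 RPKM for Atf3 and 17.3 RPKM for Egr1, so their turn depends on the length used.

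**Figure D4:**
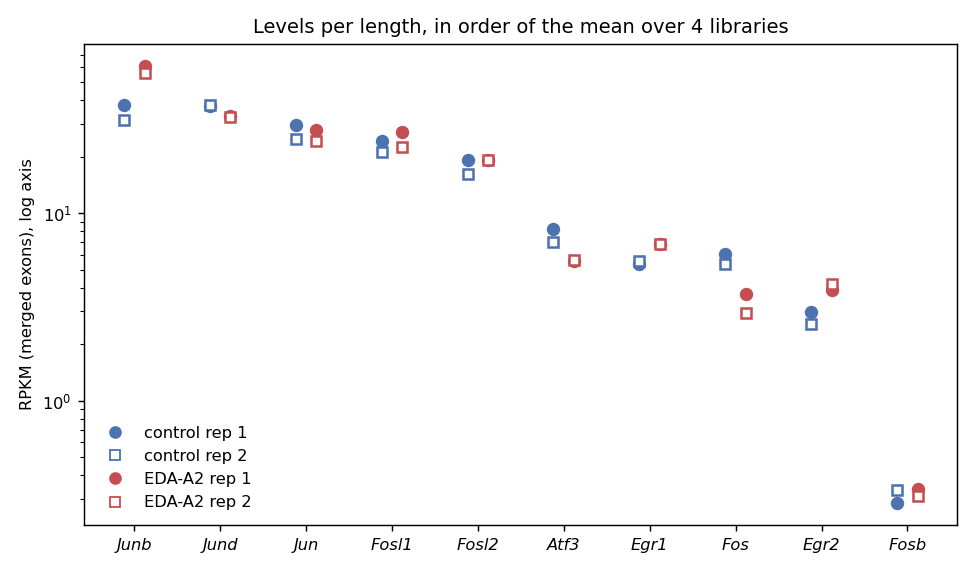
RPKM, counts per kilobase of merged exons scaled to library size (log axis), of the 10 genes in the 4 libraries, in order of the mean; blue is control, red EDA-A2, circles replicate 1, squares replicate 2. Junb, Jund, Jun, Fosl1 and Fosl2 lie between 16.2 and 61.1 RPKM, and Fosb lies between 0.285 and 0.340 RPKM.

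Some other genes had a pattern over the 4 libraries close to that of a called member, measured as the Euclidean distance between log2(CPM + 0.5) values centred on each gene's mean and searched over 13064 protein-coding genes. Nearest to Junb were Eqtn (distance 0.08), Zswim4 (0.10) and Kctd11 (0.11), and nearest to Fos were Bex1 (0.13), Myh13 (0.13) and Mtcl1 (0.16). Atf3 had Cdh18 (0.02), Nrip3 (0.05) and Tagln (0.05) as its nearest genes. For Egr1 they were Hgfac (0.01), Sertad4 (0.01) and Negr1 (0.02), and for Egr2 they were Npas3 (0.04), Grm7 (0.05) and Gpr176 (0.05). Some of these are low, with 9 to 16 counts for Hgfac, and Eqtn, Bex1, Myh13, Cdh18, Nrip3, Hgfac, Negr1, Npas3 and Grm7 were themselves not called. The added 0.5 CPM damps the changes of such low genes, so a small distance need not mean an equal change. On the log2 scale Eqtn changed by 1.27 (Junb 0.75), Bex1 by -1.28, Myh13 by -1.09 (Fos -0.79) and Hgfac by 0.69 (Egr1 0.32). Changes were closer for Zswim4 (0.82), Kctd11 (0.72), Mtcl1 (-0.67), Tagln (-0.43), Sertad4 (0.32), Negr1 (0.36) and Gpr176 (0.59). Cdh18, Nrip3, Npas3 and Grm7 also changed more than their member.

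The other genes of the pathway were read from the same fit as 7 lists. Of their 122 genes 116 were tested, and 15 were called, 7 higher and 8 lower, which is 12.9% against 4.57% of all genes. The lists share a pathway and were chosen with earlier results of these data known, so the share is given as a description. In the list of other immediate early genes 4 of 32 were called, or 12.5%, and the median of the list was -0.02 on the log2 scale. Plk2, a polo-like kinase, rose from 4507 and 4099 to 5971 and 5989 normalized counts (log2 fold change 0.47, adjusted p = 0.000806), and Gadd45b, a stress sensor also known as an NFκB target, rose from 1529 and 1389 to 2031 and 2080 (0.49, adjusted p = 0.00115). Csrnp1, a nuclear protein, fell from 505 and 460 to 337 and 336 normalized counts (log2 fold change -0.52, adjusted p = 0.0114), and the nuclear receptor gene Nr4a3 fell from 156 and 110 to 66.7 and 68.8 (-0.97, adjusted p = 0.0170). For each of these 4 genes the groups did not overlap, which was also so for 45.0% of all genes tested. Classical members of the list such as Ier2 (log2 fold change 0.24), Ier3 (0.00), Myc (0.13) and Nr4a1 (-0.27) were not called.

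Of the other bZIP genes listed beside AP-1, 3 of 15 tested were called, or 20%, against 4.57% of all genes tested. Whether each of them pairs with FOS or JUN proteins was not examined. The list median was -0.01. Maf, a large MAF protein, had 699.6 and 919 normalized counts in control and 1512 and 1489 after EDA-A2, a log2 fold change of 0.89 (adjusted p = 0.000121). Atf5, a stress-response factor, fell from 3691 and 3034 to 2484 and 2577 normalized counts (log2 fold change -0.41, adjusted p = 0.0111), and the value was -0.26 without control replicate 1. Of the bZIP list, Batf and Batf2 were too low to be tested. In the EGR and NAB list no gene was called by edgeR or DESeq2, and 1 of 3 tested had an unadjusted p under 0.05. The EGR gene Egr3 and the corepressor genes Nab1 and Nab2 belong to it, with Nab2 at 1983 and 1742 normalized counts in control and 1611 and 1381 after EDA-A2 (log2 fold change -0.32, adjusted p = 0.0631) and Nab1 at 0.06 on the log2 scale. Egr4 had 0 counts in all 4 libraries.

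**Figure D5:**
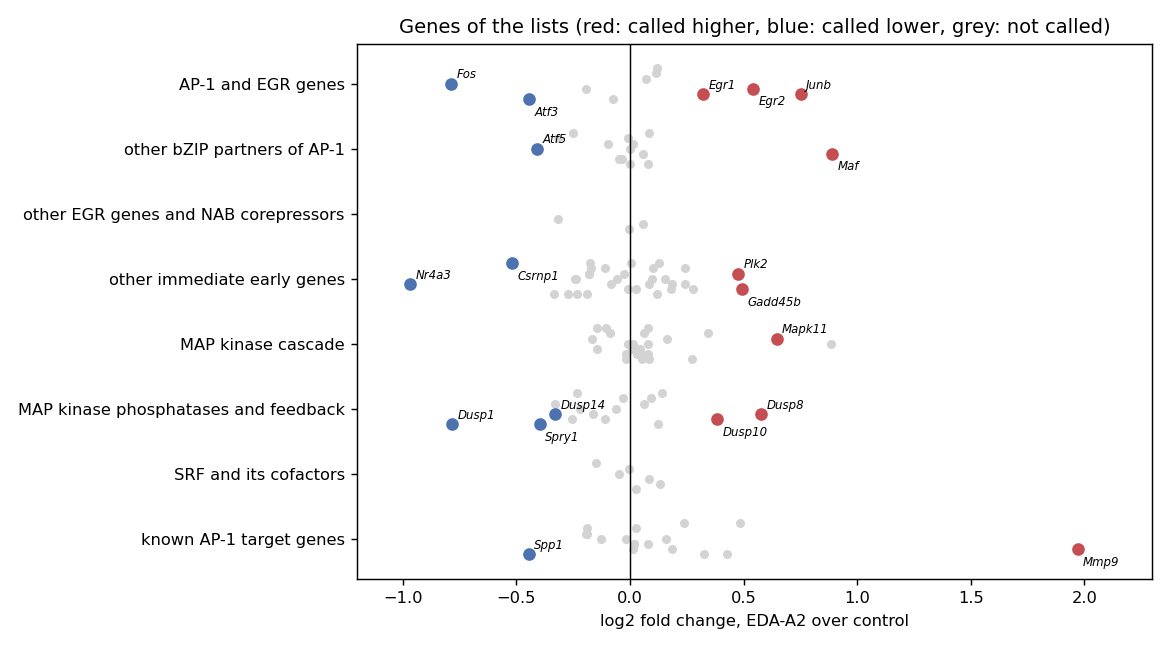
Log2 fold change (EDA-A2 over control, horizontal axis) of the AP-1 and EGR genes and of tested genes in 7 lists of related genes, without 1 gene that is not reported here; red points were called higher, blue lower and grey were not called. Called genes of the 7 lists lie on both sides of 0, from Nr4a3 (-0.97) to Mmp9 (1.97).

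Genes upstream of AP-1 were read from 3 lists. In the MAP kinase cascade 1 of 25 genes tested was called, or 4%, near the share over all genes. This was Mapk11, which encodes p38 beta, with 197 and 174 normalized counts in control and 308 and 273 after EDA-A2 (log2 fold change 0.65, adjusted p = 0.0125). Of the MAP kinase phosphatases and feedback inhibitors 5 of 17 were called, or 29.4%, against 4.57% of all genes tested. Dusp1, a phosphatase of MAP kinases that is itself an immediate early gene, fell from 591 and 568 to 303 and 371 normalized counts, a log2 fold change of -0.78 (adjusted p = 0.000870). Dusp8 and Dusp10, phosphatases that act on JNK and p38, rose by 0.58 (adjusted p = 0.00341) and 0.38 (adjusted p = 0.00468) on the log2 scale. Dusp14 fell by 0.33 (adjusted p = 0.0275) and Spry1, a feedback inhibitor of growth factor signalling, fell by 0.40 (adjusted p = 0.0326) on the log2 scale. SRF and its cofactors held no called gene by edgeR or DESeq2 among 6 tested, with 0 at an unadjusted p under 0.05 and values from -0.15 for Srf to 0.13 for Elk3. Of the called list genes named here, Spry1 was not called under library totals or the DESeq2 Wald test, and Dusp14 not under library totals. Leaving out either EDA-A2 library ended the calls of Nr4a3 (adjusted p = 0.0562 and 0.0716 without replicates 1 and 2), Csrnp1 (0.0707 and 0.0937), Dusp14 (0.368 and 0.0930) and Spry1 (0.319 and 0.0770). Those of Mapk11 (adjusted p = 0.158) and Dusp10 (0.0868) ended without EDA-A2 replicate 1.

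Of 20 known AP-1 target genes 18 were tested and 2 were called, or 11.1%, against 4.57% of all genes tested. With so few genes called, that share is a description only. The list median was 0.02. Mmp9, a gelatinase that is a target of both AP-1 and NFκB, had 205 and 268 normalized counts in control and 937 and 920 after EDA-A2 (log2 fold change 1.97, adjusted p = 1.16e-07). Spp1, which encodes osteopontin, fell from 47091 and 48306 to 34858 and 35149 normalized counts (log2 fold change -0.45, adjusted p = 0.00108). Plau, Timp1, Ccnd1, Cd44, Il6 and Hmox1 were not called, with log2 fold changes from -0.19 to 0.19. For scale, the NFκB pathway genes Nfkb2, Nfkbia and Nfkbie changed by 1.89, 1.43 and 3.15 on the log2 scale, each more than any of the 10 AP-1 and EGR genes. They ranked 2, 7 and 1 by p among all genes tested, so they do not stand for that pathway as a whole.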

How the data were processed

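RNA from mouse primary myotubes was measured in 2 control and 2 EDA-A2 libraries. The authors checked reads with FastQC 0.11.9 and MultiQC 1.12, trimmed them with Trim Galore 0.6.5, aligned them to GRCm39 with STAR 2.7.3a and counted them per gene with HTSeq 0.11.1, as the methods and the submitters' processing notes give it. The annotation release and strand option are not given in the sources used here. The deposited values are raw whole-number counts per Ensembl gene, and HTSeq's summary lines (12.185% to 12.991% of each file's total) were left out. Of 53647 genes 52610 matched GENCODE, which gave symbols, lengths and starts.

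Gene-wise tests were run with edgeR 4.0.16 under R 4.3.3 (TMM, filterByExpr with a minimum count of 10 and total of 15, glmQLFit, glmQLFTest, group as the only term), with Benjamini-Hochberg adjustment over all genes tested. The standard error is the log2 fold change over the square root of F, and intervals cover 95%. Alternatives were other scalings, filters, DESeq2 1.42.0, a replicate block and leaving out each library. The fitting steps were tested on simulated counts. The 10 genes and all lists were chosen with earlier results of these data known. Named are all 10 genes, in each list the called genes (at most 4 by p) or the 2 with the smallest p, the 3 nearest genes to each called gene, Eda2r, Nfkb2, Nfkbia and Nfkbie; other list genes were named after their values were seen. The values of 1 called list gene are not reported here, though it is included in the counts.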

Additional observations from a re-analysis of the deposited data

How the results depend on the processing

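The 5 calls among the 10 genes stood with DESeq2 size factors, upper quartile factors, at least 10 counts in every library and a replicate block. Library totals gave 4 called, the DESeq2 Wald test 3 and no filter 0 (6 at an unadjusted p under 0.05). Over all genes 694 were called (371 higher, 323 lower), 86 with no filter, 1066 with the replicate block, and 485 higher and 194 lower with library totals. In the 7 lists 15 were called, 2 of them with no filter (31 at an unadjusted p under 0.05). The cause was not tested. Leaving out 1 library, with a lone sample assumed to vary like the other group, gave 0 to 402 calls over all genes, 0 to 3 of the 10 genes and 0 to 10 in the lists. Without control replicate 1 or 2 these were 0, with 7 and 6 of the 10 genes and 33 and 39 list genes at an unadjusted p under 0.05. Without EDA-A2 replicate 1 they were 402, 3 and 9, and without EDA-A2 replicate 2 they were 377, 2 and 10. No sign of a called gene turned. The ranges crossing 0 were those of Fosb (-0.037 to 0.19, -4e-04 without EDA-A2 replicate 1), Fosl1 (-0.023 to 0.24) and Jun (-0.19 to 0.056, 0.020 without EDA-A2 replicate 2). Replicate numbers pair no samples by the labels, and deviations of same-numbered libraries correlated at 0.0828, so the replicate block is given only here. It called 5 of the 10 genes and 20 in the lists. With coding length 7 of the 10 genes kept their rank per length. Depth limits Fosb most, with 51 to 64 counts.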
